A study of Mus musculus with 12 samples.

Results

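The cytosolic ribosomal protein genes encode the proteins of the ribosome that works outside mitochondria. They were chosen by symbol alone, as every gene whose name is Rpl or Rps with a number, Rplp0, Rplp1, Rplp2 or Rpsa, leaving out pseudogenes and the Rps6k kinases. The rule found 82 of 17362 listed genes, of which 46 encode proteins of the large subunit, 30 encode proteins of the small subunit and 6 are paralogues of such genes (Rpl3l, Rpl7l1, Rpl10l, Rpl22l1, Rpl39l and Rps27l). The 76 genes other than paralogues are called core genes here. All 82 passed the filter on low values. The symbol rule does not take in Fau and Rack1, which also encode ribosomal components, nor Rps3a1 and Rpl36al, and these are given apart.

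The RNA came from sorted marrow endothelial cells, taken from crushed tibia, femur and iliac bones of untreated B6 mice, and was made into libraries with a low-input kit. All 4 gates took CD31+ Sca1+ cells that lacked CD45. CD200-high cells were in addition CD200Hi and EMCN-, type H cells were EMCN+, arterial cells were CD200-, and the sinusoidal gate names no further antigen. The labels used here give no age. Each population had 3 libraries, which the labels describe as biological triplicates from 6 mice, without saying how many mice went into a library. As written, the sinusoidal gate contains the other 3, and the type H and arterial gates can overlap.

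Listed reads ranged from 7332198 to 21627997 per library. The libraries labelled sinusoidal went against their label in part. Ly6a, which encodes Sca1, averaged 10.19 log2 CPM (counts per 1000000 reads) in CD200-high libraries, 8.92 in those of type H, 9.78 in arterial ones and 4.05 in those labelled sinusoidal, which are therefore called by their label throughout. The 16 pan-endothelial marker genes together took 0.436 ± 0.151% of reads in CD200-high cells, 0.966 ± 0.0257% in type H vessels, 0.224 ± 0.0347% in arterial cells and 0.0567 ± 0.00222% under the sinusoidal label (SD, n = 3 each). Not all 16 went this way. Against the libraries labelled sinusoidal, limma called 13 higher and 1 lower both in CD200-high and in type H. In arterial cells 13 were called higher and 0 lower. In bulk libraries such as these, fewer cells of a type and less RNA per cell cannot be told apart.

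A ribosome joins a small subunit, which reads the mRNA, to a large subunit, which forms the peptide bond. Because ribosomes need most of these proteins in equal amounts, their genes are usually expressed together, and their mRNAs are among the most abundant of a growing cell. Most of these mRNAs start with a run of pyrimidines, the terminal oligopyrimidine (TOP) tract, through which mTOR and LARP1 control their translation. Marrow is a tissue where the supply of ribosomal proteins matters, since inherited mutations in genes such as RPS19, RPL5 or RPL11 cause Diamond-Blackfan anaemia in humans.

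The start regions below are those of some members named in the results, with and without a TOP tract. RefSeq start windows on the GRCm38.p6 build were on hand for 62 of the 82 members. A tract was searched as a run of at least 8 C or T letters that begins with C, on the gene's strand, starting between 20 bases before and 50 bases after the annotated start. It was found in 45 of 56 core genes (80.4%), in 3 of 6 paralogues, in 16 of 69 genes of the mitochondrial ribosome (23.2%) and in 22.7% of 27025 genes of all kinds. Each sequence runs 5′ to 3′ from 30 bases before the annotated start to 30 after it, and capitals mark the tract.
Rps27, chr3:90213619-90213678, minus strand: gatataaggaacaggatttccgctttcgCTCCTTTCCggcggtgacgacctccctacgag
Rpl38, chr11:114668550-114668609, plus strand: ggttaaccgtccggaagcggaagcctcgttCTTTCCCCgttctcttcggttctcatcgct
Rps9, chr7:3704011-3704070, plus strand: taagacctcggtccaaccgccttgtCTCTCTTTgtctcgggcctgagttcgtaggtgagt
Rps3, chr7:99483680-99483739, minus strand: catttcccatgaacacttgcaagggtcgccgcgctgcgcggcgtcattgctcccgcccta
Rpl22l1, chr3:28805478-28805537, plus strand: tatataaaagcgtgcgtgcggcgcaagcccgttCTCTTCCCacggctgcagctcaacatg
Rpl39l, chr16:10170198-10170257, plus strand: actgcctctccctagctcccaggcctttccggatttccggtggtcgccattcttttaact
Rps27, Rpl38, Rps9 and Rpl22l1 hold a tract of 8 or 9 letters at or next to the annotated start. Rps3 and Rpl39l hold none that meets the search in this window, which says nothing more about how their mRNAs begin. Of members not shown, Rpl22 holds no tract at either annotated start. Rpl3l holds a tract of 9 letters at position 32 from an annotated start and none at its other start. The letters CCGGAAG, at the centre of many ETS factor motifs, were searched on both strands of the 300-base window. They were present in 23 of 56 core genes (41.1%), among them Rpl38, in 37.7% of the genes of the mitochondrial ribosome and in 9.93% of all genes. On the opposite strand the same letters read CTTCCGG, which begins with pyrimidines and can overlap a tract. A TATAAA in the 40 bases before the start was found in 0 of 56 core genes and in 2.78% of all genes, and it was present in the paralogue Rpl22l1.

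The ribosomal protein genes took the largest share of reads in the libraries labelled sinusoidal and the smallest in CD200-high. All 82 together took 2.49, 2.51 and 2.44% of reads in CD200-high cells, 3.12, 2.81 and 3.01% in type H vessels, 3.13, 2.62 and 2.57% in arterial cells and 3.64, 3.79 and 3.79% under the sinusoidal label. The 3 CD200-high libraries lay below all others and the 3 labelled sinusoidal above all others, while type H and arterial libraries overlapped. The mean share was 2.48 ± 0.0365% in CD200-high cells, 2.98 ± 0.156% in type H vessels, 2.78 ± 0.309% in arterial cells and 3.74 ± 0.0885% under the sinusoidal label (SD, n = 3 each). Both subunits kept this order of means, the large at 1.43% in CD200-high cells, 1.68% in type H vessels, 1.55% in arterial cells and 2.09% under the sinusoidal label, and the small at 1.02% in CD200-high cells, 1.254% in type H vessels, 1.19% in arterial cells and 1.59% under the sinusoidal label.

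A share depends on what else a library holds. In CD200-high libraries 16 stromal and bone marker genes, among them the type I collagen genes, took 14.2 ± 2.18% of reads (12.2 to 16.6%), against 0.638 ± 0.135% in type H vessels, 2.54 ± 0.327% in arterial cells and 1.51 ± 0.499% under the sinusoidal label. Not all 16 were higher there. In CD200-high, 13 were called higher and 2 lower than in type H, and 6 higher and 3 lower than in arterial cells. Against the libraries labelled sinusoidal, 12 were called higher and 1 lower. With erythroid, neutrophil, B and plasma cell, and stromal and bone markers taken out of the total, the ribosomal share came to 2.93% in CD200-high cells, 3.03% in type H vessels, 2.998% in arterial cells and 3.91% under the sinusoidal label. On this total the CD200-high mean came near those of type H and arterial cells, and the mean of the libraries labelled sinusoidal stayed above all 3. Whether stromal RNA sets the lower share in CD200-high was not tested beyond this.

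**Figure D1:**
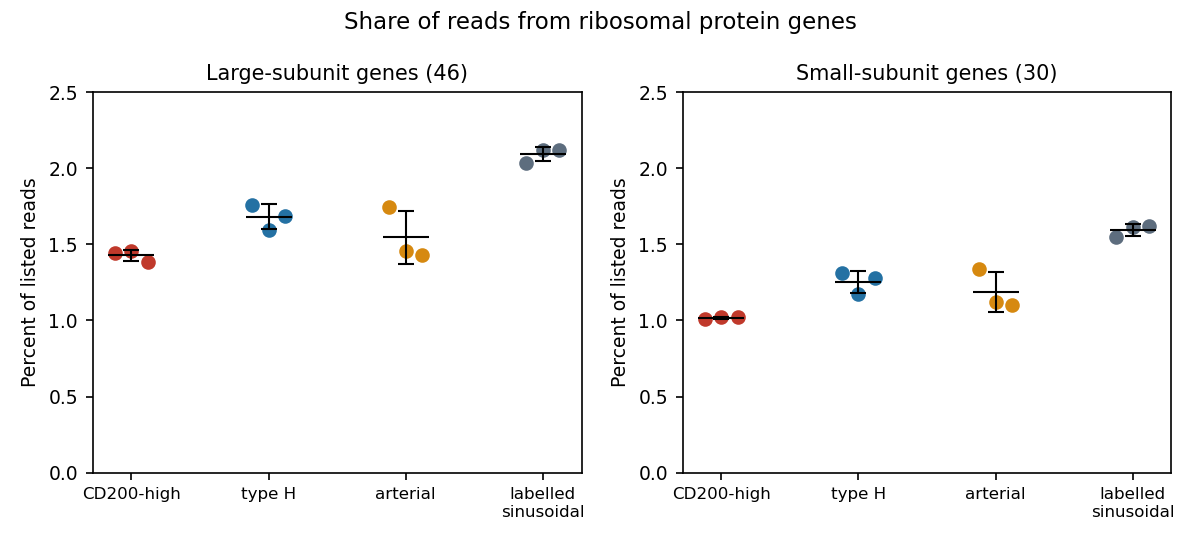
Share of listed reads (percent, vertical axis) taken by the 46 large-subunit and 30 small-subunit genes in each library, by sorted population. Points are libraries, the long bar is the mean and the whiskers are 1 SD (n = 3). The libraries labelled sinusoidal sit above the rest in both panels.

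Per length, Rpl41 stood highest, with a mean of 1607 CPM per kilobase of its shortest principal transcript, followed by Rps28, a small-subunit member, at 1447 and Rps27 at 1324. Rpl41 encodes the smallest ribosomal protein. At the other end stood the paralogues Rpl10l at 0.383, Rpl3l at 2.91 and Rpl39l at 13.4 CPM per kilobase. Among core genes the median level in a library ranged from 8.09 to 8.57 log2 CPM. All values below are log2 CPM as deposited, with no correction for length, and differences are log2 ± SE with adjusted p from limma over all genes tested.

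Set against the libraries labelled sinusoidal, core genes had median differences below 0 in each of the other 3 populations. In CD200-high, 22 of 76 core genes fell and 0 rose, where 14.6% of all genes fell and 14.1% rose, and the median difference was -0.33, with -0.22 over all genes. In type H, 10 core genes fell and 1 rose, where 14.6% of all genes fell and 13.9% rose, with a median of -0.20 for the core genes and -0.20 for all genes. In arterial cells, 6 core genes fell and 0 rose, where 2.14% of all genes fell and 8.09% rose, with a median of -0.33 against -0.02 for all genes. The share of core genes called in either direction was 28.9, 14.5 and 7.89% in these comparisons, against 28.7, 28.6 and 10.2% of all genes, so that in either direction the share was near or below the background. All core calls in CD200-high and in arterial cells were falls, and in that direction alone they were above the background. Counting paralogues too, without the mean-variance trend in limma 1 member in place of 23 was lower in CD200-high cells, 1 in place of 11 in type H vessels and 0 in place of 6 in arterial cells, and with every library rescaled to the same total 70, 39 and 38 were. With 1 library left out the counts ran over 13 to 27, 4 to 12 and 0 to 14, and the libraries that moved them most are given with the alternatives.

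The arterial differences were the most even. All 76 core genes had a difference below 0 from the libraries labelled sinusoidal, between -0.57 and -0.06, where 50.6% of all genes did. The 3 arterial values lay below the 3 labelled sinusoidal in 64 of 76 core genes, and in 17.8% of all genes. The values lay below those labelled sinusoidal, without overlap, in 53 core genes in CD200-high and in 37 in type H, where 25.1 and 25.2% of all genes did. They lay above in 0 core genes in CD200-high cells, 3 in type H vessels and 0 in arterial cells, where 21.4, 21.6 and 21.7% of all genes did. The arterial differences of the core genes had an SD of 0.10, against 0.21 both in CD200-high and in type H set against the same libraries. The median standard error of 1 gene was 0.134 for core genes and 0.718 over all genes. Core genes can thus pass or separate at smaller differences than most genes, so the shares of all genes are not like for like. The 3 comparisons with the libraries labelled sinusoidal share those libraries.

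**Figure D2:**
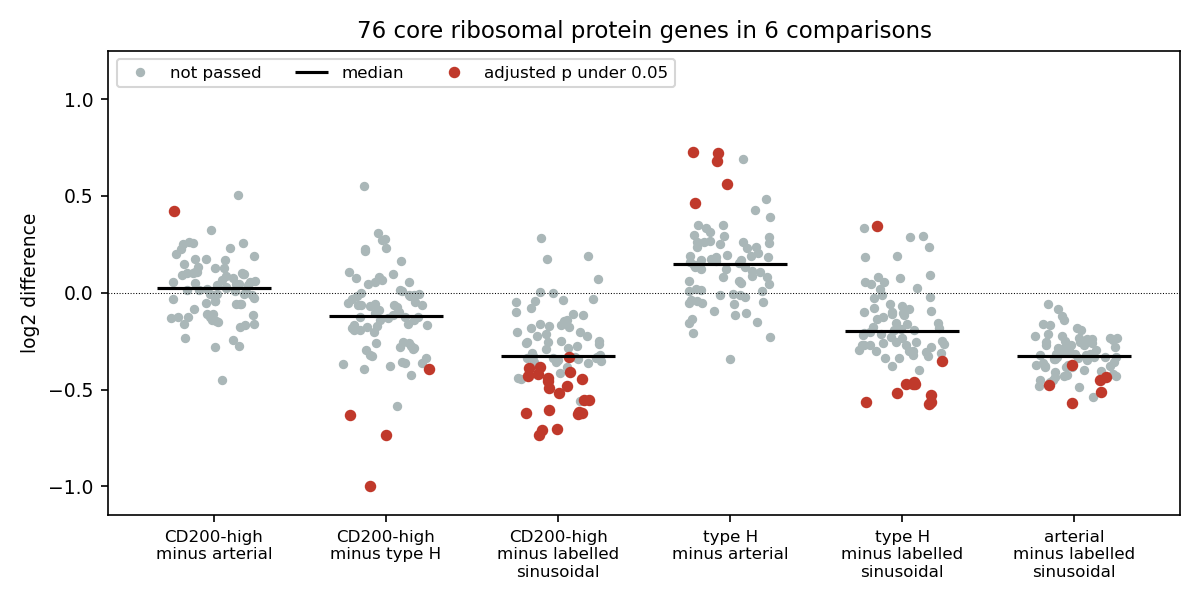
Log2 difference (vertical axis) of each of the 76 core genes in the 6 comparisons, first-named population minus second. Each point is a gene, red where limma's adjusted p was under 0.05, and the black bar is the median. The points for arterial minus labelled sinusoidal all lie below 0 in a narrow band.

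The largest falls of core genes in CD200-high against the libraries labelled sinusoidal were those of Rps9, Rpl22 and Rpl32. Rps9, a protein of the mRNA entry channel, measured 8.59, 8.67 and 8.47 in CD200-high cells, 9.09, 8.50 and 9.14 in type H vessels, 9.14, 9.05 and 8.89 in arterial cells and 9.23, 9.35 and 9.35 under the sinusoidal label. CD200-high lay below both arterial and labelled sinusoidal libraries without overlap, and 1 type H library fell among them. Rps9 fell by 0.73 ± 0.16 in CD200-high against the libraries labelled sinusoidal (limma adjusted p = 0.00529). Rpl22 fell by 0.71 ± 0.19 (adjusted p = 0.0174) and Rpl32 by 0.71 ± 0.17 (adjusted p = 0.0103), both of the large subunit. Rpl32 was chosen after its values were seen. Rps9, Rpl32, Rps6 and Rps19 kept this call on leaving out any 1 library, but not without the trend (adjusted p = 0.0527, 0.0687, 0.1003 and 0.148). The call of Rpl22 was lost without CD200-high replicate 2 (adjusted p = 0.0565) and without replicates 1 or 3 labelled sinusoidal (0.0555 and 0.0600). It was also lost without the trend (0.0634). An alternative added after seeing the data took values relative to the median of the ribosomal protein genes in each library. This removes the change they share. There Rps9 and Rpl32 kept the call, while Rps6, Rps19 and Rpl22 did not (limma adjusted p = 0.0977, 0.250 and 0.0990).

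Rps6, the ribosomal protein that S6 kinases phosphorylate, measured 8.73, 8.81 and 8.60 in CD200-high and 9.22, 9.21 and 9.27 in the libraries labelled sinusoidal, a fall of 0.52 ± 0.11 (limma adjusted p = 0.00590). Type H at 9.04, 8.90 and 8.98 lay between, and arterial at 9.06, 8.72 and 8.79 overlapped with CD200-high in replicates 2 and 3. Rps19, whose human counterpart is the gene most often mutated in Diamond-Blackfan anaemia, measured 9.37, 9.13 and 9.24 in CD200-high cells, 9.43, 9.40 and 9.41 in type H vessels, 9.45, 9.14 and 9.17 in arterial cells and 9.67, 9.72 and 9.68 under the sinusoidal label. The libraries labelled sinusoidal lay above every other library for this gene. Against them, Rps19 fell by 0.44 ± 0.11 among CD200-high cells, with a limma adjusted p of 0.0102, and by 0.44 ± 0.11 in arterial cells, with 0.0249. Its difference in type H was -0.28 ± 0.11 (adjusted p = 0.0768). The arterial call was lost on leaving out any 1 of 5 libraries, arterial replicates 2 and 3 (adjusted p = 0.0975 and 0.1) or replicates 1, 2 and 3 labelled sinusoidal (0.0684, 0.0922 and 0.0704). It was also lost without the trend (0.269), in a fit of the 2 populations alone (0.0558) and relative to the ribosomal protein median (0.659).

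Of the other genes tied to that anaemia, Rpl5 and Rpl11, which bind the p53 regulator MDM2 with the 5S rRNA when ribosome assembly fails, gave calls in different comparisons. Rpl5 measured 8.39, 8.14 and 8.12 in CD200-high cells, 8.24, 8.10 and 8.34 in type H vessels, 8.32, 8.53 and 8.23 in arterial cells and 8.67, 8.72 and 8.70 under the sinusoidal label. It fell against these last by 0.48 ± 0.13 in CD200-high (limma adjusted p = 0.0154) and by 0.47 ± 0.13 in type H (0.0159), and the arterial difference was -0.33 ± 0.13 (0.137). Without replicate 2 labelled sinusoidal these adjusted p values were 0.0535 in CD200-high and 0.0547 in type H, and without type H replicate 2 the type H value was 0.0542. Rpl11 fell in arterial cells by 0.51 ± 0.13 (adjusted p = 0.0230), a call that was lost without arterial replicates 2 or 3 (0.0594 and 0.0992) and without replicates 2 or 3 labelled sinusoidal (0.0805 and 0.0891). In CD200-high its difference was -0.26 ± 0.13 (0.142). Rps14, lost in human 5q- syndrome, passed in none of the 6 comparisons. Of members named for their level or rank, Rps15a fell by 0.56 ± 0.16 in CD200-high (limma adjusted p = 0.0234) and by 0.57 ± 0.16 in arterial cells (0.0442), Rpl3 by 0.45 ± 0.12 in CD200-high (0.0175) and Rpl39 by 0.58 ± 0.19 in type H (0.0416), all against the libraries labelled sinusoidal. Each of these 4 calls was lost on leaving out at least 2 single libraries, replicate 3 labelled sinusoidal being among them every time, with adjusted p up to 0.163. Relative to the ribosomal protein median, none of the calls given here for Rpl5, Rpl11, Rps15a, Rpl3 and Rpl39 was kept (0.0898 to 0.525). None was kept without the trend either (0.1045 to 0.194).

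Rpl4 was the only 1 of the 76 core genes called higher in the libraries labelled sinusoidal than in each of the other 3 populations, where 1.29% of all genes were. That count was near the background share. Rpl4 measured 8.35, 8.54 and 8.15 in CD200-high cells, 8.25, 8.17 and 8.31 in type H vessels, 8.44, 8.12 and 8.32 in arterial cells and 8.72, 8.73 and 8.86 under the sinusoidal label. No library of another population reached the last group. Rpl4, a large-subunit protein that lines the exit tunnel, fell by 0.42 ± 0.13 in CD200-high (limma adjusted p = 0.0341), by 0.53 ± 0.13 in type H (0.0110) and by 0.475 ± 0.13 in arterial cells (0.0428). The type H call held on leaving out any 1 library but not without the trend (0.1095). With the mouse number as a block the arterial adjusted p was 0.0644, and it was 0.0577 to 0.157 without any 1 of type H replicates 1 and 3, arterial replicates 2 and 3 and the 3 labelled sinusoidal. The CD200-high call was lost without CD200-high replicates 1 or 3 and without any 1 of the 3 labelled sinusoidal (adjusted p = 0.0660 to 0.114). It was also lost with median-of-ratios factors (0.0647) and a fit of the 2 populations alone (0.06895). Without the trend the CD200-high and arterial calls were lost too (0.1865 and 0.249). Relative to the ribosomal protein median, the CD200-high, type H and arterial calls were all lost (0.406, 0.0674 and 0.586).

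Type H vessels differed from arterial and CD200-high cells in the calls of a few core genes, which were higher in type H. The paralogue Rpl3l, given below, was called lower in type H than in arterial cells. Between type H and arterial cells 5 core genes rose and 0 fell, where 7.96% of all genes rose and 12.7% fell, and the core median was 0.15 against -0.20 for all genes. Between CD200-high and type H cells 0 core genes rose and 4 fell, where 6.66% of all genes rose and 6.35% fell, with a core median of -0.12 against -0.05 for all genes. Rps3, Rps27, Rpl22 and Rpl37a were called in both comparisons, higher in type H each time, and Rpl23 was called higher in type H than in arterial, by 0.46 ± 0.13 (limma adjusted p = 0.0235). The comparisons share the type H libraries. Of the core genes, 6.58% were called between type H and arterial cells and 5.26% between CD200-high and type H. These shares were below the 20.7 and 13% of all genes called in either direction. They were also below the 7.96% of all genes that rose and the 6.35% that fell. Type H lay above arterial without overlap in 13 core genes and below in 1, where 17% and 22.9% of all genes did, and CD200-high lay above type H in 5 and below in 18, where 16.6 and 14.4% did. Quantile normalisation turned the median over all 82 members between type H and arterial to -0.13, with 0.07 over all genes, and gave 2 higher and 6 lower. The 5 higher came to 3 without type H replicates 1 or 3 or arterial replicate 2, to 11 without type H replicate 2 and to 9 without arterial replicate 1. The 4 lower in CD200-high than in type H came to 2 without CD200-high replicates 2 or 3 or type H replicates 1 or 3, and to 8 without type H replicate 2. Without the mean-variance trend 0 members in place of 5 were higher in type H than in arterial, and 1 in place of 4 was lower in CD200-high than in type H.

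Rps3 was the only member called higher in type H than in each of the other 3 populations, where 2.89% of all genes were. Rps3 is a small-subunit protein at the mRNA entry site that also acts outside the ribosome in DNA repair. It measured 9.56, 9.39 and 9.54 in CD200-high cells, 10.39, 10.03 and 10.27 in type H vessels, 9.71, 9.43 and 9.50 in arterial cells and 9.88, 9.84 and 9.94 under the sinusoidal label. All 3 type H libraries lay above all 9 others. CD200-high stood 0.74 ± 0.12 below type H (0.601-fold, limma adjusted p = 0.00133), and type H stood 0.68 ± 0.12 above arterial (1.60-fold, adjusted p = 0.00161). These calls held on leaving out any 1 library but not without the trend (0.0605 and 0.0560). Type H stood 0.35 ± 0.12 above the libraries labelled sinusoidal (adjusted p = 0.0424), and this call was lost without any 1 of type H replicates 1 and 3, arterial replicate 3 and the 3 labelled sinusoidal (0.0546 to 0.150). It was also lost with equal totals (0.262), quantile normalisation (0.357), no trend (0.280) and a fit of the 2 populations alone (0.0577). Against the libraries labelled sinusoidal Rps3 fell by 0.39 ± 0.12 in CD200-high (0.0255), a call lost without CD200-high replicate 2 or any 1 of the 3 labelled sinusoidal (0.0563 to 0.0841). The CD200-high call was also lost without the trend (0.212) and relative to the ribosomal protein median (0.389). In arterial cells the Rps3 difference of -0.33 did not pass (0.0974). That arterial difference passed with the mouse number as a block (0.0466) and with equal totals (0.0186). No member was called highest in CD200-high or in arterial cells, where 1.57 and 1% of all genes were. None was lowest in CD200-high, type H, arterial or labelled sinusoidal libraries, where 1.11, 2.22, 0.0819 and 4.86% were.

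Rps27, a zinc-finger protein of the small subunit also known as metallopanstimulin, measured 8.70, 8.46 and 8.49 in CD200-high cells, 9.38, 8.89 and 9.27 in type H vessels, 8.70, 8.19 and 8.46 in arterial cells and 9.18, 8.84 and 8.95 under the sinusoidal label. Type H and labelled sinusoidal libraries overlapped, and both lay above the other 2 populations. Type H stood 0.73 ± 0.17 above arterial (limma adjusted p = 0.0103), a call that held on leaving out any 1 library. It was lost without the trend (0.0747) and with quantile normalisation (0.0660). CD200-high stood 0.63 ± 0.17 below type H (adjusted p = 0.0297). The CD200-high call was lost without CD200-high replicates 2 or 3 (0.0830 and 0.0679) or type H replicates 1 or 3 (0.107 and 0.0934). It was also lost without the trend (0.155) and in a fit of the 2 populations alone (0.08345). Against the libraries labelled sinusoidal, the Rps27 difference was -0.44 in CD200-high (adjusted p = 0.0730) and -0.54 in arterial cells (0.0700). Both passed with the mouse number as a block (0.0131 and 0.0108), with equal totals (0.00284 and 0.0162) and with quantile normalisation (0.00602 and 0.0340).

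Rpl22, a large-subunit protein that lymphocyte development needs in mice, measured 6.36, 6.15 and 6.61 in CD200-high cells, 7.38, 7.31 and 7.43 in type H vessels, 6.84, 6.28 and 6.84 in arterial cells and 7.13, 6.96 and 7.17 under the sinusoidal label. Every type H library lay above every other library, and CD200-high overlapped with arterial. The difference of CD200-high from type H, -0.998 ± 0.19 or 0.501-fold, was the largest of any core gene in the 6 comparisons (limma adjusted p = 0.00502), and the call held in all 22 alternatives run, with adjusted p from 0.00188 to 0.0328. Type H stood 0.72 ± 0.19 above arterial (adjusted p = 0.0204), a call lost without type H replicates 1 or 3 (0.0527 and 0.0597) or arterial replicate 2 (0.0729). It was also lost with quantile normalisation (0.0634) and without the trend (0.0752). Rpl37a, named here after its values were seen, measured 9.35, 9.18 and 9.17 in CD200-high cells, 9.73, 9.47 and 9.69 in type H vessels, 9.13, 8.93 and 9.13 in arterial cells and 9.38, 9.34 and 9.28 under the sinusoidal label, and the type H libraries again lay above all others. It stood 0.56 ± 0.11 higher in type H than in arterial (adjusted p = 0.00370), a call kept in every fit with 1 library left out but not without the trend (0.0938). It stood 0.39 ± 0.11 lower in CD200-high than in type H (0.0343), lost without CD200-high replicates 2 or 3, type H replicates 1 or 3 or any 1 of the 3 labelled sinusoidal (0.0513 to 0.113). That call was also lost without the trend (0.280), in a fit of the 2 populations alone (0.168) and with median-of-ratios factors (0.07595). Relative to the ribosomal protein median it was lost too (0.0535). The Rpl37a difference of 0.30 between type H and those labelled sinusoidal did not pass (0.0634), but did with the mouse number as a block (0.0431), with voom weights (0.0229) and relative to the ribosomal protein median (0.00256).

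Rpsa was lower in type H than in the libraries labelled sinusoidal. Rpsa, whose protein also serves as a laminin receptor at the cell surface, measured 9.13, 8.90 and 8.81 in CD200-high cells, 8.79, 8.35 and 8.77 in type H vessels, 9.11, 8.87 and 8.96 in arterial cells and 9.18, 9.13 and 9.30 under the sinusoidal label. All 3 type H libraries lay below every other library. It fell by 0.565 ± 0.14 in type H against the libraries labelled sinusoidal (limma adjusted p = 0.0113), a call kept in every fit with 1 library left out but not without the trend (0.104). The type H difference from arterial, -0.34 as deposited, did not pass (limma adjusted p = 0.116). It passed with equal totals (0.0434) and with quantile normalisation (0.00370). Taken relative to the median of the ribosomal protein genes in each library, an alternative added after seeing the data, Rpsa was also 0.48 ± 0.11 lower in type H than in arterial (adjusted p = 0.00977) and 0.38 ± 0.11 higher in CD200-high cells than in type H vessels (0.0414).

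**Figure D3:**
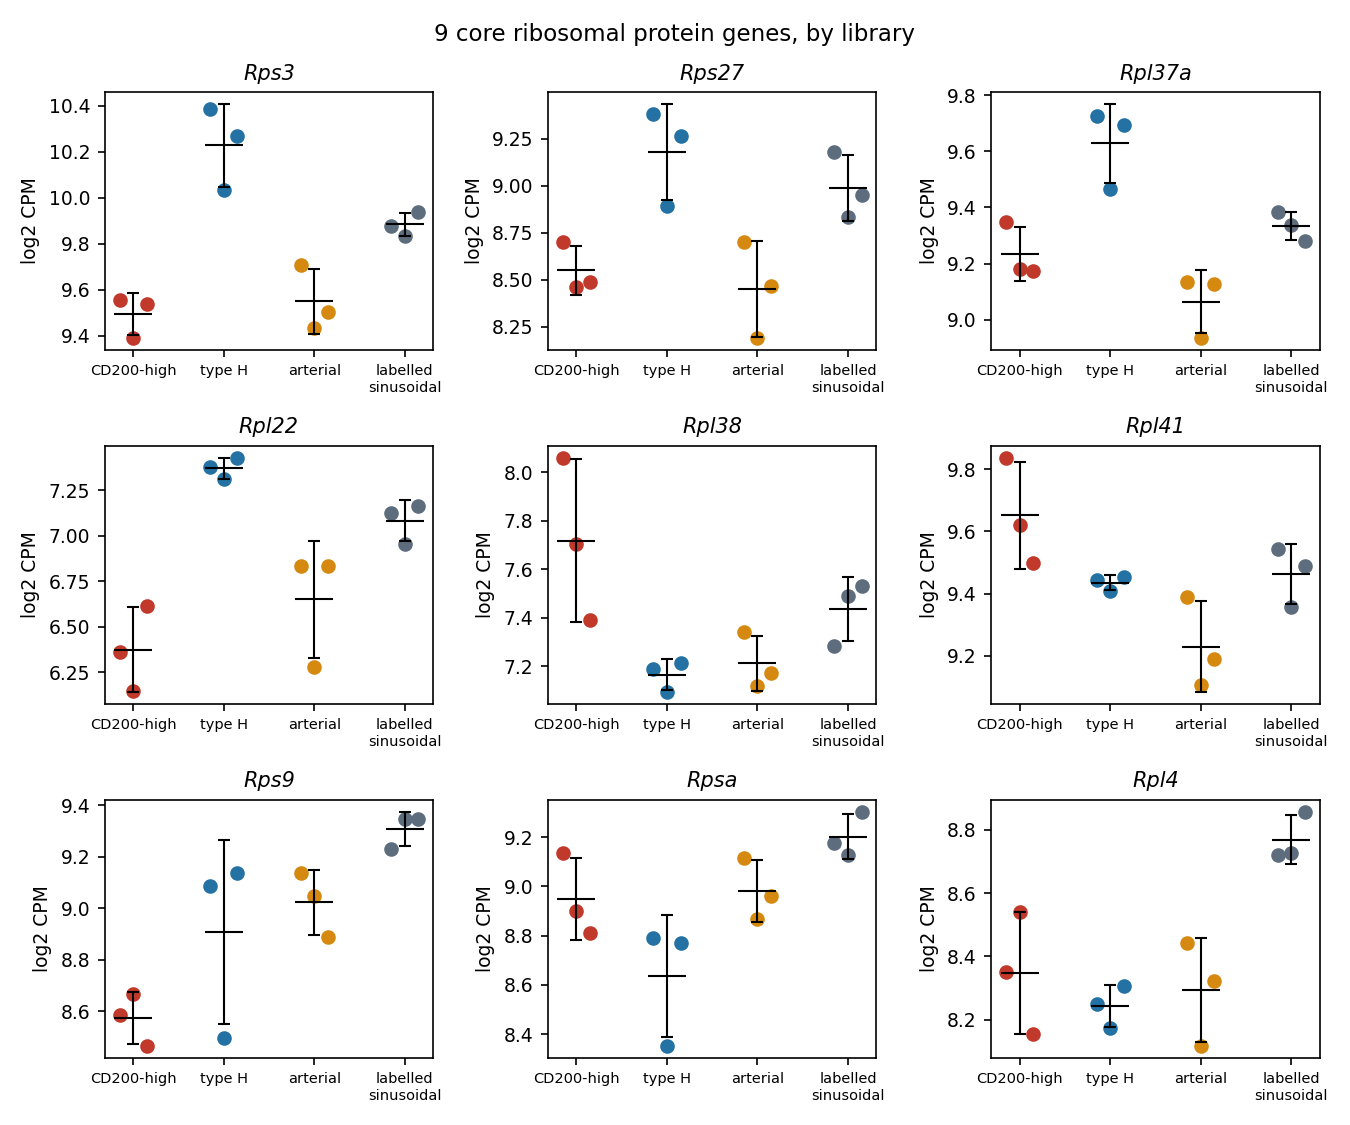
Log2 CPM (vertical axes, each with its own range) of 9 core genes in the 12 libraries, by sorted population. Points are libraries, the long bar is the mean and the whiskers are 1 SD (n = 3). Type H libraries are above all others for Rps3, Rpl22 and Rpl37a and below them for Rpsa.

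CD200-high and arterial cells gave 1 call. Of the core genes 1 rose and 0 fell, where 4.75% of all genes rose and 8.15% fell, and the core median was 0.03 against -0.22 for all genes. CD200-high lay above arterial without overlap in 6 core genes and below in 5, where 13.3% and 19% of all genes did. With each library rescaled to the same total of reads the median over all 82 members was -0.16 in place of 0.03, and that over all genes -0.41, and quantile normalisation gave -0.14 and 0.04. The gene called was Rpl41, at 9.84, 9.62 and 9.50 in CD200-high cells, 9.44, 9.41 and 9.45 in type H vessels, 9.39, 9.11 and 9.19 in arterial cells and 9.54, 9.36 and 9.49 under the sinusoidal label. CD200-high stood 0.42 ± 0.12 above arterial (limma adjusted p = 0.0344), without overlap. The call was lost without CD200-high replicates 1 or 2 (0.106 and 0.0657), arterial replicates 2 or 3 (0.115 and 0.0978) or replicate 3 labelled sinusoidal (0.0522). It was also lost with equal totals (0.167), quantile normalisation (0.305), no trend (0.250) or a fit of the 2 populations alone (0.143).

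Rpl38 had the largest positive core differences of CD200-high from type H and arterial cells. Rpl38, which in mice is needed for translation of Hox mRNAs in the embryo, measured 8.06, 7.70 and 7.39 in CD200-high cells, 7.19, 7.09 and 7.21 in type H vessels, 7.34, 7.12 and 7.17 in arterial cells and 7.28, 7.49 and 7.53 under the sinusoidal label. The CD200-high values lay above all type H and arterial values but spread widely and overlapped with those labelled sinusoidal. As deposited, its differences did not pass, at 0.55 ± 0.17 from type H (limma adjusted p = 0.0604) and 0.51 ± 0.17 from arterial (0.0827). The difference from type H passed with median-of-ratios factors (0.0315), quantile normalisation (0.0322) and voom weights (0.0369). It stayed uncalled in 17 of the 22 alternatives. Relative to the median ribosomal protein gene of each library, Rpl38 was 0.63 ± 0.16 higher in CD200-high cells than in type H vessels (adjusted p = 0.0285) and 0.55 ± 0.16 higher than in the libraries labelled sinusoidal (0.0273). On the same relative scale Rpl41 and, chosen after its values were seen, Rplp1, a protein of the stalk that recruits translation factors, were 0.46 ± 0.10 and 0.45 ± 0.13 higher in CD200-high than in the libraries labelled sinusoidal (0.00533 and 0.0238). Rplp0, the base of that stalk and a common reference gene in quantitative PCR, was 0.35 ± 0.10 higher in CD200-high cells than in type H vessels (0.0497). As deposited, Rplp0 did not pass in any of the 6 comparisons.

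The paralogues are encoded by separate genes, and some replace their parent protein in particular tissues. Rpl3l, which stands in for Rpl3 in heart and skeletal muscle, had 21, 0 and 0 reads in CD200-high cells, 6, 0 and 0 in type H vessels, 83, 30 and 31 in arterial cells and 221, 370 and 172 under the sinusoidal label. It was thus near 0 in the first 2 populations, with reads in 1 library of each, and in every library of the other 2. Limma called it lower than in the libraries labelled sinusoidal both in CD200-high (adjusted p = 0.0130) and in type H (0.00371), under all 22 alternatives, and lower in type H than in arterial (0.0257). This last call was lost without type H replicates 2 or 3 (0.0755 and 0.0771) or arterial replicates 1 or 3 (0.0819 and 0.0689), and with quantile normalisation (0.0939). No fold is given, since with so few reads it depends on the 0.5 read added. Even in the libraries labelled sinusoidal Rpl3l averaged 8.65 CPM per kilobase, against 325 for Rpl3.

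Muscle tissue lies close to bone, and 14 skeletal muscle genes were added to the lists after the Rpl3l values were seen. The 10 of them in the table together took 0.00174% of reads in CD200-high cells, 0.00426% in type H vessels, 0.00666% in arterial cells and 0.00717% under the sinusoidal label. The highest library stood at 0.0117%. The part of such RNA in the Rpl3l result was not tested.

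Rpl39l, a paralogue used in mouse spermatogenesis, had 313, 198 and 108 reads in CD200-high cells, 13, 49 and 44 in type H vessels, 43, 92 and 83 in arterial cells and 75, 0 and 51 under the sinusoidal label. On the log2 scale CD200-high, at 4.86, 3.79 and 4.001, lay above every other library, of which the highest stood at 3.15. The call against the libraries labelled sinusoidal (limma adjusted p = 0.0456) was lost with the mouse number as a block (0.0541) and on leaving out any 1 of 10 libraries, all but replicates 1 and 3 of those labelled sinusoidal (0.0509 to 0.110). That call was also lost with equal totals (0.05115), no trend (0.0618) and a fit of the 2 populations alone (0.112). Against type H and arterial the limma adjusted p of Rpl39l was 0.228 and 0.521. Per kilobase it reached 35.5 CPM in CD200-high, where Rpl39 itself stood at 297.

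Rpl22l1, which Rpl22 represses in mice, was expressed at a level near that of its parent, at 214 CPM per kilobase over the 4 populations, against 257 for Rpl22. Rps27l, which p53 induces, averaged 384 CPM per kilobase, against 1324 for Rps27. The log2 ratio of Rpl22l1 to Rpl22 was 0.29 ± 0.39 in CD200-high, -0.16 ± 0.20 in type H vessels, 0.02 ± 0.29 in arterial cells and -0.23 ± 0.17 in the libraries labelled sinusoidal (SD, n = 3 each). The populations overlapped, and an exact permutation test over the 369600 assignments of libraries to populations gave p = 0.167 (adjusted over 6 pairs, 0.2). Of the 6 paralogue to parent ratios, only Rpl3l to Rpl3 passed this test (exact permutation p = 0.00779, adjusted 0.0468), with ratios that depend on the 0.5 read added where Rpl3l had no reads, and its adjusted p was 0.0505 to 0.114 without CD200-high replicates 2 or 3, type H replicates 2 or 3, arterial replicates 2 or 3 or any 1 of the 3 labelled sinusoidal. Rpl7l1 to Rpl7 (exact permutation p = 0.0178, adjusted 0.0534), Rps27l to Rps27 (0.0340, adjusted 0.0681) and Rpl39l to Rpl39 (0.0618, adjusted 0.0927) did not pass. Rpl10l, a retrocopy used in male germ cells of mice, had at most 29 reads in any library, and its ratio to Rpl10 gave an exact permutation p of 0.218 (adjusted 0.218).

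**Figure D4:**
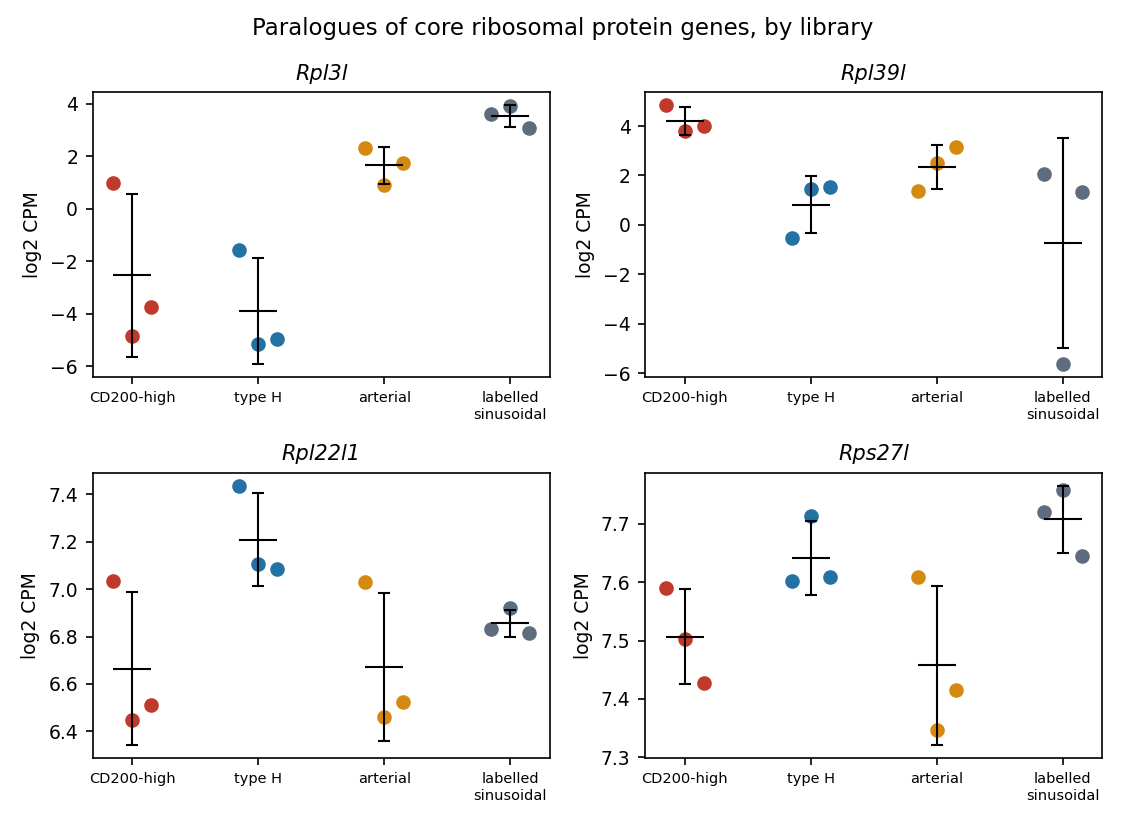
Log2 CPM (vertical axes, each with its own range) of 4 paralogues in the 12 libraries, by sorted population. Points are libraries, the long bar is the mean and the whiskers are 1 SD (n = 3). The lowest points of Rpl3l and Rpl39l are libraries with 0 reads, placed by the 0.5 read added.

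Ribosomal components outside the symbol rule were called lower only against the libraries labelled sinusoidal. Rack1, a scaffold on the small subunit, fell by 0.74 ± 0.16 in CD200-high (limma adjusted p = 0.00511) and by 0.54 ± 0.16 in type H (0.0242) against the libraries labelled sinusoidal, and Fau, which yields the small-subunit protein eS30, fell by 0.62 ± 0.16 in CD200-high (0.0134). Rps3a1 fell against the same libraries by 0.455 ± 0.13 in CD200-high (0.0233) and by 0.45 ± 0.13 in type H (0.0241), and Rpl36al by 0.46 ± 0.15 in type H (0.0410). None of these 4 genes passed in the comparisons of CD200-high, type H and arterial cells with each other, nor in arterial cells against those labelled sinusoidal.

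Of the genes that build ribosomes, several fell in CD200-high and type H against the libraries labelled sinusoidal. Of 68 nucleolar biogenesis genes, 20 fell and 1 rose in CD200-high, with a median of -0.80, and 10 fell and 2 rose in type H, with a median of -0.50. In arterial cells 2 fell and 0 rose, with a median of -0.38. The share of the list called in either direction was 30.9% for CD200-high, 17.6% for type H and 2.94% for arterial cells, against 28.7, 28.6 and 10.2% of all genes, near the background in CD200-high and below it in the other 2. Of all genes, 14.6, 14.6 and 2.14% fell. Falls alone in the list were above that share in CD200-high and near it in the other 2. The medians over all genes in these comparisons were -0.22 for CD200-high, -0.20 for type H and -0.02 for arterial cells, and both these medians and these shares of all genes apply to the lists that follow. Bysl, a factor for the small subunit, measured 6.51, 7.38 and 6.66 in CD200-high cells, 7.31, 7.10 and 7.40 in type H vessels, 8.24, 7.96 and 8.06 in arterial cells and 8.77, 8.86 and 8.70 under the sinusoidal label. The CD200-high and type H libraries lay below all arterial libraries, and these below all those labelled sinusoidal. Bysl fell by 1.92 ± 0.21 in CD200-high (limma adjusted p = 4.12e-05) and by 1.51 ± 0.21 in type H (0.000199) against the libraries labelled sinusoidal, and Ncl, the gene of nucleolin, by 1.45 ± 0.22 in CD200-high (0.000569) and 1.15 ± 0.22 in type H (0.00240). Tbl3, another small-subunit factor, was higher in type H, at 6.94, 7.08 and 7.25, against 3.11, 3.32 and 3.19 in arterial libraries (difference 3.88 ± 0.45, adjusted p = 0.000157).

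Among translation factors, calls were again mostly falls against the libraries labelled sinusoidal. Of 35 initiation factor genes 10 fell and 1 rose in CD200-high against the libraries labelled sinusoidal (median -0.38), 7 fell and 1 rose in type H (median -0.30) and 1 fell and 0 rose in arterial cells (median -0.30). In either direction 31.4, 22.9 and 2.86% were called, near the background in CD200-high and below it in the other 2. Falls alone were above the 14.6% of all genes that fell in CD200-high and in type H, and near the 2.14% in arterial cells. Eif3e, a subunit of the factor that loads the small subunit, fell by 1.45 ± 0.23 in CD200-high (limma adjusted p = 0.000615), where it also fell against arterial (by 0.95 ± 0.23, 0.0185) and against type H (by 1.06 ± 0.23, 0.00942). Of 11 elongation and release factor genes 3 fell in CD200-high cells, 3 in type H vessels and 0 in arterial cells, and 0 rose, so that 27.3, 27.3 and 0% were called, none above the background for either direction. On these 11 genes, falls alone were above the 14.6% of all genes that fell in CD200-high and in type H. Eif5a, which helps ribosomes through proline runs, was 1.01 ± 0.125 lower in type H than in the libraries labelled sinusoidal (1.003e-04) and 0.75 ± 0.125 lower than in arterial (0.00145). Of 10 other TOP mRNAs in the table, 6 fell and 1 rose both in CD200-high and in type H, and 1 fell and 1 rose in arterial cells. These are 70, 70 and 20% of a list of 10 genes. Hnrnpa1 fell by 1.497 ± 0.24 in CD200-high (0.000671), whereas Vim, the vimentin gene, rose by 1.43 ± 0.23 (0.000797).

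The genes of RNA polymerases I and III gave few calls. Of 26 in the table, 1 rose and 2 fell in CD200-high and 1 rose and 2 fell in type H against the libraries labelled sinusoidal, and 0 rose and 1 fell in arterial cells. That is 11.5, 11.5 and 3.85% called, below the 28.7, 28.6 and 10.2% of all genes. Polr3d, a subunit of the polymerase that makes 5S rRNA and tRNA, was at 6.80, 5.70 and 5.79 in CD200-high cells, 3.81, 3.94 and 3.98 in type H vessels, 4.61, 3.84 and 3.87 in arterial cells and 3.75, 3.49 and 4.48 under the sinusoidal label, and CD200-high lay above all others. It was higher there by 2.19 ± 0.41 than in type H (limma adjusted p = 0.00403), by 1.99 ± 0.41 than in arterial (0.00845) and by 2.19 ± 0.41 than in the libraries labelled sinusoidal (0.00196). Of 24 regulators of ribosomal protein supply, 4 rose and 4 fell in CD200-high, 2 rose and 1 fell in type H and 0 passed in arterial cells against the libraries labelled sinusoidal, or 33.3, 12.5 and 0% called. Cdkn1a, a p53 target, measured 8.95, 8.68 and 8.38 in CD200-high cells, 7.39, 7.14 and 7.66 in type H vessels, 6.32, 6.75 and 5.997 in arterial cells and 6.36, 6.35 and 6.64 under the sinusoidal label. It was higher in CD200-high than in arterial by 2.32 ± 0.23 (0.000199), while Trp53 itself was lower by 0.92 ± 0.25 (0.0319). The 78 mitochondrial ribosomal protein genes gave 3 rises and 12 falls in CD200-high against the libraries labelled sinusoidal (median -0.40), 4 and 11 in type H (median -0.33), and 0 and 2 in arterial cells (median -0.30). With 19.2, 19.2 and 2.56% called in either direction, this list was below the background of all genes in each. Its falls alone were near the 14.6, 14.6 and 2.14% of all genes that fell.

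Markers of blood cells and of division also differed between the populations that stand apart here. The 25 cell cycle genes took 0.0525 ± 0.0209% of reads in CD200-high cells, 0.0587 ± 0.0213% in type H vessels, 0.237 ± 0.0479% in arterial cells and 0.369 ± 0.0281% under the sinusoidal label. The 12 B and plasma cell markers took 0.0278 to 0.0439% in CD200-high, where 1 of them had no reads, 0.0188 to 0.0283% in type H vessels, 0.208 to 0.506% in arterial cells and 1.28 to 1.45% under the sinusoidal label. The 11 megakaryocyte and platelet markers took 0.00170 to 0.00990% in CD200-high cells, 0.00439 to 0.00763% in type H vessels, 0.0546 to 0.188% in arterial cells and 0.352 to 0.485% under the sinusoidal label, with 1 marker without reads in CD200-high and 1 in type H. Other lists were highest in arterial libraries. The 14 neutrophil markers took 0.829% in CD200-high, 0.616% of reads in type H vessels, 2.86% in arterial cells and 0.913% under the sinusoidal label, and 11 of the 14 rose in arterial cells against the last. The 12 erythroid markers took 0.284% in CD200-high, 0.504% of reads in type H vessels, 1.65% in arterial cells and 0.523% under the sinusoidal label, and 4 of the 12 rose in arterial cells against the last. The part of all these cells in the differences of the ribosomal protein genes was not tested.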

How the data were processed

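The members and gene lists were chosen with earlier results of these data known. The authors deposited 1 table of log2 values, 17362 genes by 12 libraries. The values hold log2 CPM with 0.5 read added, relative to an effective library size whose scaling method is not given in the sources used here. Undoing the log gave whole reads within 0.01 for 100% of values. The submitters' processing notes name Trimmomatic, STAR, SAMtools, featureCounts, deepTools and R 4.3 without settings, and a human build for mouse samples, so the sequences shown are RefSeq's own and not coordinates of the deposited counts. How reads shared with processed pseudogenes, which are many for these genes, were counted is not given in the sources used here, nor is the strand, so levels of single members are uncertain to that extent.

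Each comparison was tested with limma 3.58.1 (R 4.3.3), with a mean-variance trend, all 12 libraries in 1 fit and no block. Of the listed genes, 17086 were kept that reached 0.63 CPM, or 10 reads at the mean effective size, in 3 or more libraries, and 276 were left out. A gene was called under a Benjamini-Hochberg adjusted p of 0.05 within its comparison. Paralogue ratios were tested with an exact permutation test of the F statistic over 369600 assignments of libraries, adjusted over 6 pairs, where the smallest possible p is 6.49e-05. The tests were checked on simulated data. Levels per length use GENCODE M21 transcripts, and start windows come from RefSeq (GRCm38.p6), with no genome used.

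Members were named by a rule. It took the 3 largest called rises and falls in each comparison, members called against each of the other populations, the paralogues with their parents, the 3 highest and lowest levels, and 8 members with known roles, and up to 4 genes of each other list by smallest adjusted p. Other members named are said to be chosen after their values were seen, or stand for a small count. The labels give each library a mouse number that recurs across populations. It was read as marking the same mice or pools, which the labels do not state outright (they give 6 mice in all), so the tests reported have no block and blocked values stand beside results whose call they change. Deviations of same-numbered libraries from the population means correlated at -0.044 to 0.112 over 9846 genes (median 0.03, 1 of 18 pairs over 0.1). The alternatives were no filter, 3 other scalings, log2(CPM + 1), no trend, 2 populations alone, the replicate block, and each library left out. Added after seeing the data were voom weights on the recovered reads and a shift to an equal median of the ribosomal protein genes. The planned quasi-likelihood test on counts was not run. Some genes that the rule names are not reported here. Listed reads of 7332198 to 21627997 per library leave counting error small for core genes and large for Rpl3l, Rpl10l and Rpl39l. Where the deposit does not say that libraries came from separate mice, p values measure the spread between these libraries.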

Additional observations from a re-analysis of the deposited data

How the results depend on the processing

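Counts of ribosomal protein genes called depended most on the scaling and on the mean-variance trend. The counts rest on 82 genes, 6 paralogues included. With each library rescaled to the same total, the genes called higher came to 0 for CD200-high against arterial, 0 for CD200-high and 0 for type H against the libraries labelled sinusoidal. Those called lower came to 4 for CD200-high against arterial, 15 against type H and 70 against those labelled sinusoidal, 2 for type H against arterial and 39 against those labelled sinusoidal, and 38 for arterial against those labelled sinusoidal. Quantile normalisation gave 0 higher and 4 lower for CD200-high against arterial, 1 higher against type H, 56 lower against those labelled sinusoidal, 2 higher and 6 lower for type H against arterial, and 0 higher and 49 lower for type H against those labelled sinusoidal. Median-of-ratios factors and log2(CPM + 1) each gave 1 higher for CD200-high against type H. Without the trend, 0 members were higher in CD200-high against arterial or those labelled sinusoidal, and in type H against arterial or those labelled sinusoidal. The genes lower without the trend were 1 for CD200-high against type H, 1 for CD200-high and 1 for type H against those labelled sinusoidal, and 0 for arterial against those labelled sinusoidal. In fits of 2 populations alone, 0 members were higher in CD200-high against arterial or those labelled sinusoidal and 0 in type H against those labelled sinusoidal, and 2 were lower in CD200-high against type H. With the replicate block, 0 members were higher in CD200-high and 2 in type H against those labelled sinusoidal. Among the single members followed through the alternatives, the block changed no call other than those stated in the report. Voom weights gave 1 higher for CD200-high against type H, 2 higher and 17 lower for type H and 12 lower for arterial against those labelled sinusoidal. Shifted to an equal ribosomal protein median, libraries gave 1 lower for CD200-high against arterial, 3 higher against type H, 4 higher and 3 lower against those labelled sinusoidal, 2 lower for type H against arterial, 5 higher and 3 lower for type H against those labelled sinusoidal, and 0 lower for arterial against those labelled sinusoidal, by construction, since the shift removes the change they share.

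Leaving out each library in turn, members higher and lower ranged over 0 to 2 and 0 to 1 for CD200-high against arterial, 0 to 1 and 2 to 8 against type H, and 0 to 1 and 13 to 27 against those labelled sinusoidal. They ranged over 3 to 11 and 0 to 1 for type H against arterial and 0 to 2 and 4 to 12 against those labelled sinusoidal. For arterial against those labelled sinusoidal they ranged over 0 to 0 and 0 to 14, with 14 lower without arterial replicate 1 and 0 lower without arterial replicates 2 or 3 or replicates 2 or 3 labelled sinusoidal. The 23 lower in CD200-high came to 15, 15 and 13 without replicates 1, 2 and 3 labelled sinusoidal, the 11 lower in type H to 4, 6, 4 and 5 without type H replicate 2 and those same libraries, and the 5 higher in type H than in arterial to 11 without type H replicate 2. Rplp0 in CD200-high against those labelled sinusoidal turned to -0.309 (adjusted p = 0.0495) with equal totals. Single members were followed through the alternatives in 180 results, of which 35 were called. Of these 35, 3 kept their call in all 22 alternatives, Rpl22 in CD200-high against type H and Rpl3l in CD200-high and in type H against those labelled sinusoidal. Calls of other members, such as Rpl23, were not followed singly.

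Without the 3 highest members the share of reads was 2.22% for CD200-high, 2.63% for type H and 3.35% for those labelled sinusoidal, and with other cells' markers out of the total it was 2.93% in CD200-high and 3.91% in those labelled sinusoidal. Leaving out 1 library it ranged over 2.46 to 2.499% for CD200-high, 2.91 to 3.06% for type H, 2.60 to 2.88% for arterial and 3.71 to 3.79% for labelled sinusoidal libraries. As log2 ratio of CPM + 1, the range of population means was 0.564 for Rpl7l1 to Rpl7 and 3.25 for Rpl39l to Rpl39, and both passed. Leaving out 1 library, it ran over 6.68 to 8.32 for Rpl3l, 0.420 to 0.742 for Rpl7l1, 2.32 to 4.40 for Rpl10l, 0.326 to 0.715 for Rpl22l1, 3.17 to 6.63 for Rpl39l and 0.423 to 0.725 for Rps27l, each to its parent; for Rpl3l, Rpl10l and Rpl39l, with libraries at 0 reads, these ranges depend on the 0.5 read added and bound nothing. Where no cause is stated, the cause of a change was not tested.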
